A study of Rattus norvegicus with 8 samples.

Results

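The transcript landscape described here is that of the kidney of 4 sham-operated rats, read from 4 of the 8 arrays of the series. All 4 were 10-week-old males of the inbred strain F344/NSlc, and the right kidney was taken after a sham operation, in which no kidney is removed. The source label gives 1 day between the operation and sampling and the series text gives 2 days, so the interval is unsettled. The 4 kidneys of the nephrectomized group were not used. Total RNA of each kidney was labelled with the dye Cy3 and hybridised to its own 1-colour Agilent array. A gene was counted as detected where at least 1 of its probes was well above background, by the scanner software's own call, on all 4 sham arrays, and 18130 of the 35237 genes on the array met that rule. A RefSeq symbol could be given to 9381 of them, out of 14400 genes with a symbol on the array (65.1%), and the ranking below is over these. The remaining 8749 detected genes are known here by accession only.

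Signal is given as the log2 intensity of a gene's brightest detected probe minus the 75th percentile of its array, so 0 marks the 75th percentile and a step of 1 is a doubling of the fluorescence. Mean and SD are over the 4 rats throughout. A ranking of this kind orders probes and not molecules, because probes differ in how well they bind and label. Among the 2368 genes with a symbol and several detected probes, the brightest and the dimmest probe of the same gene differed by a median of 2.05 on the log2 scale (quartiles 1.03 and 3.30), which is 4.15-fold. A rank is therefore a position in the signal of this array and no measure of copies per cell.

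The kidney filters blood in the glomerulus and reworks the filtrate along the nephron. The proximal tubule reclaims most of the filtered salt, glucose, amino acids, phosphate and protein, is packed with mitochondria, burns mainly fatty acids and makes glucose. The thick ascending limb takes up salt without water, and the distal convoluted tubule, connecting tubule and collecting duct set the final content of salt, acid and water in urine. The collecting duct has principal cells, which carry aquaporin 2 and the epithelial sodium channel, and intercalated cells, which move acid and base.

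Promoter sequences were matched to the ranking by symbol (RefSeq, GRCr8 assembly). Of the 100 brightest genes, 77 had a promoter with a unique symbol. Each promoter runs from 250 bases before to 50 bases after the annotated start, and 3 short motifs were searched. The motif TATAAA, the TATA box, was read on the gene's strand. GTTAAT was read on both strands (its reverse complement is ATTAAC) and is the core bound by HNF1, a transcription factor of the proximal tubule and liver. CCGCCC, with its reverse complement GGGCGG, is the GC box bound by SP1. A promoter was counted once for each motif it held, and matches of different motifs may share letters. TATAAA was in 13 of the 77 promoters of the brightest genes (16.9%), against 4.85% of the 7367 promoters of detected genes, 13.6% of the 3922 promoters of genes that were not detected and 9.25% of all 24206. Starting between 40 and 20 bases before the start, where a working TATA box lies, it was in 6 of the 77 (7.79%), against 1.30% of detected, 3.09% of undetected and 1.65% of all. Over the promoters of the 500 brightest genes it was in 4.25%. The GC box was in 54.5% of the promoters of the brightest genes, 61.6% of those of detected genes and 29.0% of those of undetected genes. These 6 genes are shown because they join both metallothioneins, an antioxidant enzyme, a glycolytic enzyme, a ribosomal protein and a haemoglobin chain. Their last 60 bases before the start are given with the box in capitals.
Mt1 (chr19:10832976-10833035, minus strand): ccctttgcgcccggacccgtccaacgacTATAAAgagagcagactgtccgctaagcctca
Mt2A (chr19:10838709-10838768, minus strand): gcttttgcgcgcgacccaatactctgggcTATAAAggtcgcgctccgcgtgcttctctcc
Sod1 (chr11:42942763-42942822, plus strand): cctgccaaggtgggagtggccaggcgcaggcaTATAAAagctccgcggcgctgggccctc
Gapdh (chr4:159652468-159652527, minus strand): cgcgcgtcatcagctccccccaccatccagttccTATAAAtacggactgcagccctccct
Rps28 (chr7:15311334-15311393, minus strand): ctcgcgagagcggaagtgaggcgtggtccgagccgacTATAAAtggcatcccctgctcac
Hba-a3 (chr10:15816944-15817003, minus strand): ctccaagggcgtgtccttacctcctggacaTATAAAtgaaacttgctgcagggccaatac

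The HNF1 core had another distribution. It was in 4 of the 77 promoters of the brightest genes (5.19%), in 4.59% of those of detected genes, in 9.10% of those of undetected genes and in 7.45% of all. Among detected members of a list of proximal tubule genes it was in 5 of 21 (23.8%), namely Miox, Slc34a1, G6pc1, Pck1 and Anpep. The 160 bases before the start are shown for 3 of them, with each core in capitals. The other 2 are not shown, to keep the set small. Those shown are Miox (inositol oxygenase), Slc34a1 (the sodium-phosphate cotransporter of the brush border) and Anpep (a brush-border aminopeptidase). A match is a description of these letters and not a binding site.
Miox (chr7:122284500-122284659, plus strand): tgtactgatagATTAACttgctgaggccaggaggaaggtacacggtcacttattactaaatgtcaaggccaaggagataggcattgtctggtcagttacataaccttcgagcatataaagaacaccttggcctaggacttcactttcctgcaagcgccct
Slc34a1 (chr17:9238984-9239143, minus strand): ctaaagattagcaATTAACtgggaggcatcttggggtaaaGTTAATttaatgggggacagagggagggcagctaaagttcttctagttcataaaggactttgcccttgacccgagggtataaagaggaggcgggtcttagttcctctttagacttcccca
Anpep (chr1:143195102-143195261, minus strand): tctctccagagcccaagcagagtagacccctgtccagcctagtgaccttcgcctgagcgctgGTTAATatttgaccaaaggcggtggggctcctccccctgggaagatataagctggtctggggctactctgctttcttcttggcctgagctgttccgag

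Of the 41012 gene probes, 54.8% were well above background in rat 1, against 61.0% to 64.6% in the other rats, and no gene spot was saturated. Arrays correlated at 0.991 to 0.995 across the detected genes, which are not independent replicates. Rats 1 and 2 shared a slide, as did rats 3 and 4, and pairs on one slide had coefficients of 0.992 and 0.995, against 0.991 to 0.995 for pairs across slides. The array of rat 1 stood apart. Its median absolute deviation from the genes' means was 0.112, against 0.0694 to 0.0717 in the other rats. The spike-in control RNAs, averaged over 8 of them, read 3.37 relative to the 75th percentile in rat 1 and 2.04 to 2.25 in the others. The part of this array-wide difference in any result below was not tested, and results that lean on rat 1 are given with its values.

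Signal spanned 13.4 on the log2 scale across detected genes, and the 100 brightest genes with a symbol lay between 7.24 and 9.17. The 100 brightest are 1.07% of the 9381. They held 25.7% to 27.2% of the summed intensity of detected genes with a symbol, depending on the rat. They are interleaved with 39 genes known by accession only. Of these genes, 94 to 98 were also among the 100 brightest of each rat's own array, and 88 were so on all 4 arrays. The set was chosen by the mean of the same 4 arrays, so part of this overlap is built in. The 100th gene was at 7.24 and the 101st at 7.24, so membership at the lower edge is arbitrary.

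At the top was Ftl1, the light chain of the iron store ferritin. It read 9.34, 9.29, 9.08 and 8.98 in rats 1 to 4 (9.17 ± 0.17, SD, n = 4). Next came Fbp1, the fructose bisphosphatase of gluconeogenesis, at 8.92, 8.97, 8.92 and 8.95 in the same order. Umod, which encodes uromodulin, the main protein of normal urine and a product of the thick ascending limb, read 8.93, 9.05, 8.72 and 8.82. Fbp1 varied far less among rats than its neighbours in rank, with an SD of 0.024 against 0.17 for Ftl1 and 0.14 for Umod. They were followed by Rplp1 (8.84 ± 0.10), a protein of the ribosome stalk, and by Atp5me (8.81 ± 0.04) and Cox6a1 (8.81 ± 0.04), subunits of ATP synthase and cytochrome oxidase. Slc13a3, a sodium-dependent dicarboxylate carrier of the basolateral membrane of the proximal tubule, read 8.84, 8.71, 8.67 and 8.73. Ctsa and Ctsb, proteases of the lysosome, stood at 8.64 ± 0.05 and 8.51 ± 0.09. Chchd10, a small protein of the mitochondrial intermembrane space, stood at 8.59 ± 0.04. Mt1, a metallothionein that binds zinc and copper, read 8.55, 8.68, 8.63 and 8.45. The means of Rplp1, Atp5me and Cox6a1 differed by less than the SD of each of them, and Umod lay above Fbp1 in rats 1 and 2 and below it in rats 3 and 4, so the order within these sets is not settled. Among the first 40 were also Atp1b1 (8.25 ± 0.08), the beta subunit of the sodium pump, and Rn45s (8.22 ± 0.26), the precursor of ribosomal RNA.

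**Figure D1:**
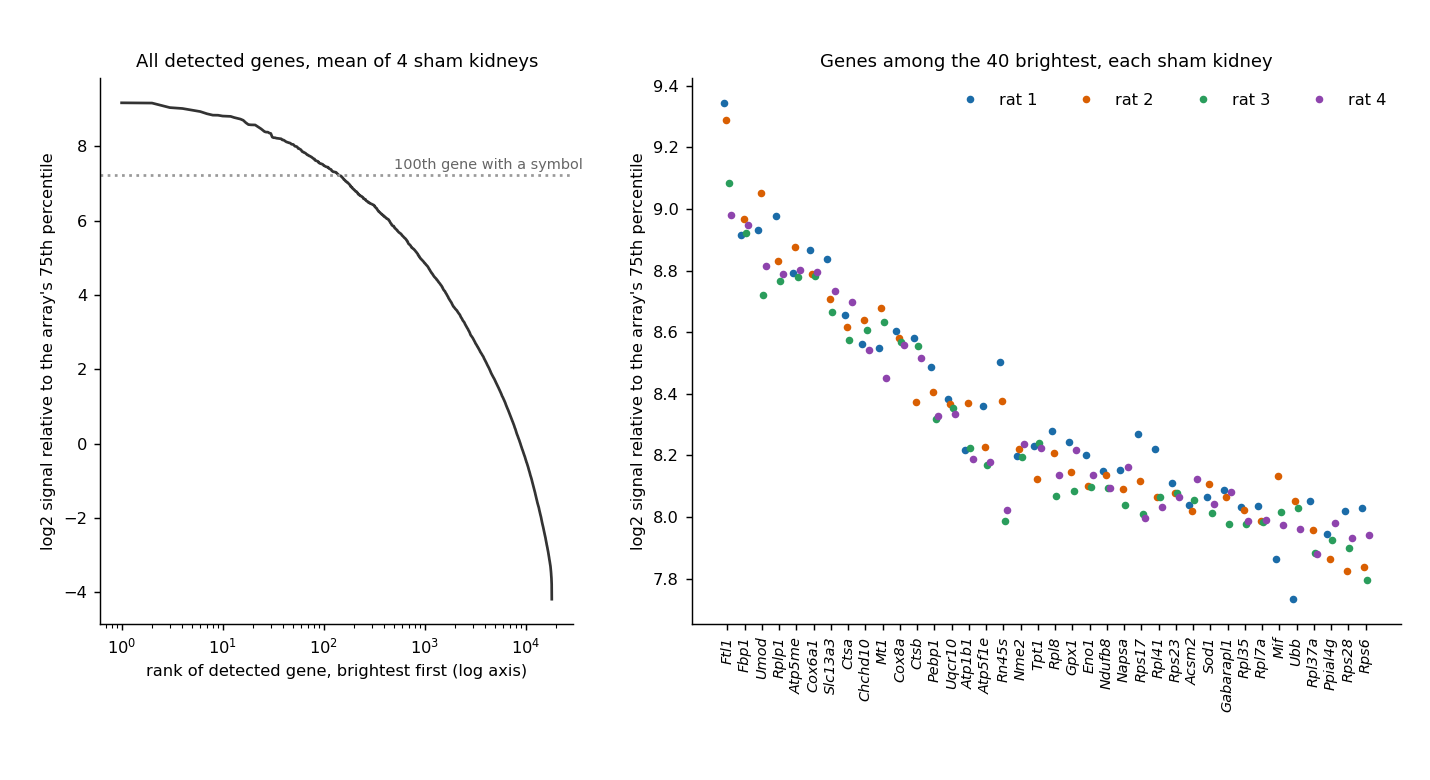
Signal of detected genes in sham-operated kidneys. Left, mean log2 signal over 4 rats (relative to each array's 75th percentile) against rank on a log axis, with the level of the 100th gene with a symbol as a dotted line at 7.24. Right, genes among the 40 brightest with a symbol, 1 point for each rat; the points of most genes lie close together, while those of Ftl1 and Rn45s spread further.

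Sorted by role after the ranking was known, the 100 brightest genes were led by protein synthesis and mitochondria. Cytosolic ribosomal proteins made up 25, subunits of the respiratory chain and ATP synthase 14, and other mitochondrial proteins 10. There were 8 genes of peroxide handling and glutathione, 7 of cytosolic sugar metabolism, 5 membrane transport genes, 4 for iron and metal binding and 4 lysosomal proteases, and 23 had other roles. The ribosomal proteins were nearly all detected (80 of 82), and 62 of them were among the 500 brightest, which are 5.33% of the detected genes with a symbol. Subunits of the respiratory chain and ATP synthase gave 88 of 91 detected and 57 among the 500 brightest. The median SD of their members was 0.060 and 0.058, against 0.121 over all detected genes. Among the brightest 10% of detected genes, a set closer in signal, the median SD was 0.080 (quartiles 0.050 and 0.119). How much of the low SD of these families goes with their high signal was not tested.

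Fuel pathways stood high as well, in signal that these arrays of bulk kidney RNA do not assign to a segment. All 13 measured genes of the citrate cycle were detected, with a median percentile of 95.4 among detected genes, led by Idh2 (7.76 ± 0.11), Idh3g (7.55 ± 0.06) and Suclg1 (7.31 ± 0.05). Ogdh, a subunit of the oxoglutarate dehydrogenase, was the dimmest at 0.26 ± 0.25. All 19 genes of fatty acid oxidation were detected, and 8 of them were among the 500 brightest. Acsm2, a medium-chain acyl-CoA synthetase, read 8.04, 8.02, 8.06 and 8.12, and Hadh and Echs1, enzymes of the beta-oxidation spiral, stood at 7.18 ± 0.07 and 6.90 ± 0.10. Of 20 genes of amino acid breakdown and synthesis, all were detected and 11 were among the 500 brightest. Hao2, a peroxisomal hydroxyacid oxidase, was at 7.30 ± 0.09, Agxt2 at 7.13 ± 0.03 and Ass1, which makes the precursor of arginine, at 6.58 ± 0.08. In glutathione and peroxide handling, all 16 genes were detected. Gpx1 (8.17 ± 0.07) and Gpx3 (7.71 ± 0.10), glutathione peroxidases inside and outside the cell, were among the 3 brightest, with Sod1 (8.06 ± 0.04), a superoxide dismutase, between them. Gclc and Gclm, the subunits of the enzyme that starts glutathione synthesis, stood at 2.81 ± 0.49 and -1.95 ± 0.38.

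The lysosome and endocytosis list, whose receptors recover filtered protein, had all 17 members detected and 11 among the 500 brightest. Besides Ctsa and Ctsb it was led by Ctsl (7.53 ± 0.10). Amn (6.44 ± 0.06), Lrp2 (6.34 ± 0.05) and Cubn (5.24 ± 0.17), which form the megalin and cubilin uptake system, lay in the same range. Gm2a, an activator of ganglioside breakdown, was the dimmest at -0.59 ± 0.06. The sodium pump was represented by Atp1b1 and by Fxyd2 (7.79 ± 0.10), its regulatory subunit.

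Lists of segment markers were read as a description of the tissue, and each segment list had at least 1 detected member. The juxtaglomerular and macula densa list had 1 of 3 detected, with Nos1 and Ptgs2 not detected. Median percentiles are over the detected members of a list, and 65.1% of all genes with a symbol on the array were detected. Of 27 proximal tubule markers on the array, 25 were detected, with a median percentile of 97.4, and 14 were among the 500 brightest. Besides Fbp1 and Slc13a3, the 100 brightest held Miox (7.54 ± 0.04) and Slc34a1, which read 7.65, 7.47, 7.38 and 7.50 in rats 1 to 4. The glucose carrier Slc5a2, the target of gliflozin drugs, was at 7.06 ± 0.06 and G6pc1, the last enzyme of gluconeogenesis, at 6.69 ± 0.14. Hnf4a, a transcription factor of the proximal tubule, read 4.48, 4.49, 4.47 and 4.47, an SD of 0.011. Cyp27b1, which activates vitamin D, was the dimmest at -1.76 ± 0.13. Slc22a8, an organic anion carrier, was on the array and was not detected on all 4 arrays.

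For the straight end of the proximal tubule (S3), all 5 markers on the array were detected. Slc3a1, the heavy chain of the cystine carrier, was the brightest at 6.86 ± 0.18. Slc7a13, an amino acid carrier of that segment, read 3.87, 4.82, 4.93 and 4.24, so that rats 2 and 3 were higher than rats 1 and 4. Slc5a1, the high-affinity glucose carrier, was at -2.63 ± 0.25.

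The thick ascending limb had all 11 markers detected, at a median percentile of 81.5. Umod was the brightest of them, and the list held also Egf (5.36 ± 0.08) and Slc12a1 (5.01 ± 0.16), the cotransporter blocked by furosemide, and Ptger3, the dimmest (-1.18 ± 0.18). All 9 markers of the distal convoluted and connecting tubule were detected. Klk1, tissue kallikrein, was among the 100 brightest with 7.62, 7.38, 7.42 and 7.41, and Wnk1 was at 5.99 ± 0.12. Slc12a3, the thiazide-sensitive cotransporter, was at 0.47 ± 0.27 and Trpv5, a calcium channel, at -2.35 ± 0.19.

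The collecting duct lists had median percentiles of 82.2 for principal and 87.2 for intercalated cells. All 9 principal cell markers were detected. Hsd11b2, which inactivates glucocorticoids beside the mineralocorticoid receptor, was the brightest at 6.74 ± 0.14. Aqp2, the water channel regulated by vasopressin, read 4.70, 4.30, 4.28 and 4.24, so that rat 1 was above the others, and Gata3 closed the list at -1.38 ± 0.13. Of 12 intercalated cell markers, 10 were detected and Slc26a7 and Kit were not. The proton pump subunit Atp6v1g3 (6.86 ± 0.16) and the chloride-bicarbonate exchanger Slc26a4 (5.60 ± 0.20) led them, and Aqp6 was the dimmest at -2.30 ± 0.21. Of 8 medullary osmolyte and urea genes, 7 were detected and Slc6a12 was not. Aqp1, a water channel of the proximal tubule and thin limb, stood at 6.50 ± 0.19, whereas the urea carrier Slc14a2 was at -2.78 ± 0.15.

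Lists of cells outside the tubule ranged in median percentile from 39.9 for endothelium to 79.4 for mesangium, muscle and fibroblasts. Podocyte markers had a median percentile of 54.8, with 10 of 11 detected and Magi2 not detected. Podxl, a coat protein of podocytes that endothelium also makes, was the brightest at 5.06 ± 0.08. All 12 endothelial markers were detected at a median percentile of 39.9, from Kdr (4.38 ± 0.18) to Pecam1 (-2.27 ± 0.15). Col1a2 (4.40 ± 0.12) and Dcn (3.65 ± 0.37) led the 9 of 11 detected mesangial, muscle and fibroblast markers, of which Itga8 and Lum were not detected. Among leukocyte markers, 5 of 10 were detected, against 65.1% of all genes with a symbol on the array. Cd74 (6.03 ± 0.12), an invariant chain of antigen presentation, and Lyz2 (4.35 ± 0.12), a lysozyme of myeloid cells, were the brightest, Ptprc was at -2.10 ± 0.14, and Cd3e, Cd8a, Cd79b and Itgam were among those not detected. None of the 7 adrenal markers on the array was detected, among them Cyp11b1, Cyp21a1 and Th. Of 9 hepatocyte markers, Alb, Ttr and Cps1 were among the 7 not detected, while F2 (3.49 ± 0.06) and Apoc3 (3.27 ± 0.06) were detected at a steady level in all rats.

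**Figure D2:**
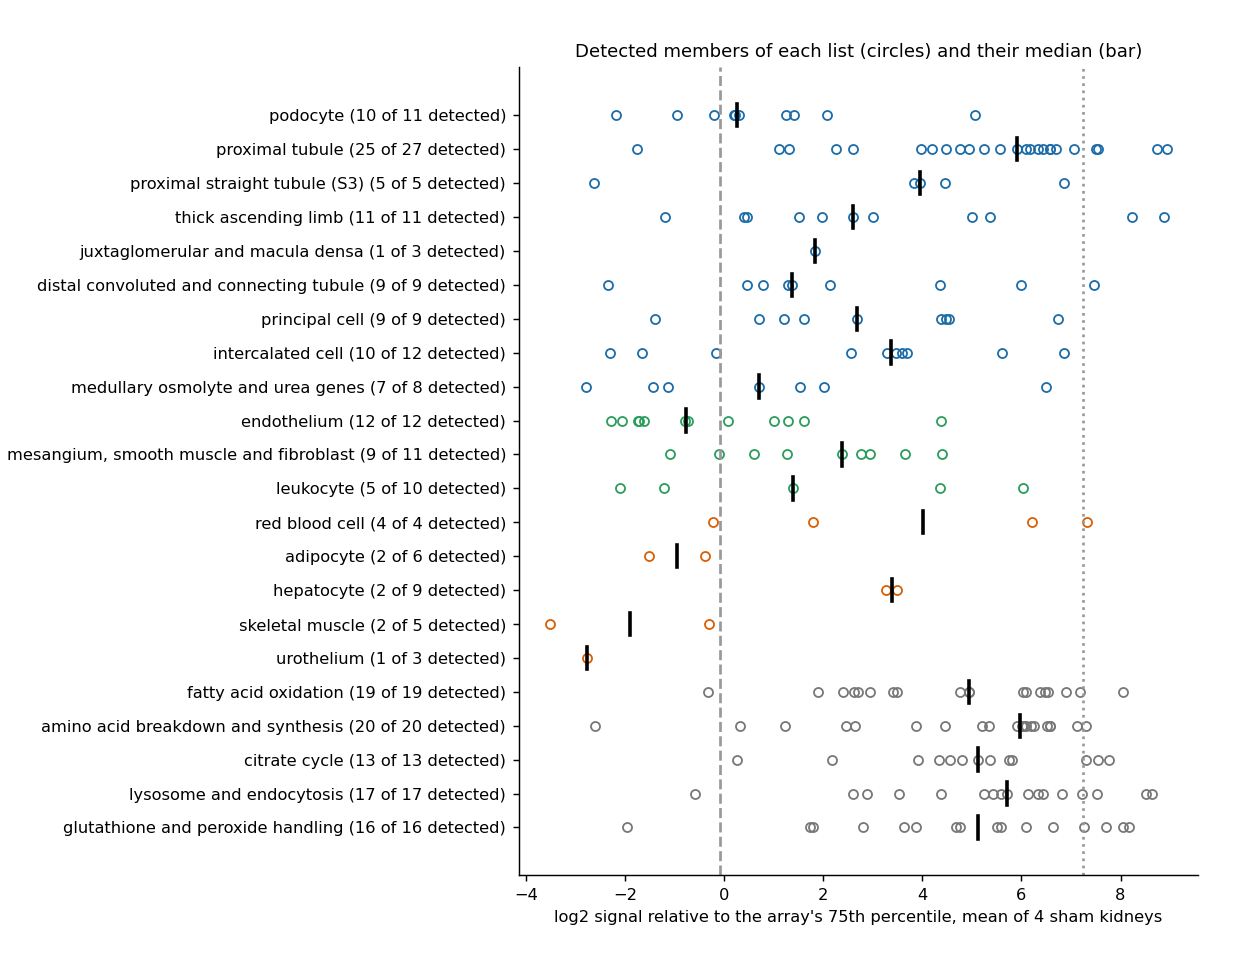
Detected members of marker and pathway lists (circles, mean log2 signal of 4 sham kidneys relative to the 75th percentile) with the list's median as a bar; the dashed line marks the median of all detected genes (-0.08) and the dotted line the 100th gene with a symbol (7.24). Blue marks nephron segments, green other kidney cells, orange other tissues and grey pathways. The proximal tubule list has the highest median of the segments, and endothelium lies below the median of all detected genes.

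Spread among the 4 kidneys was small. The median SD of a detected gene was 0.121 (quartiles 0.077 and 0.184), which corresponds to 8.76% of the level. It fell with signal, from 0.194 in the dimmest 10% of genes to 0.080 in the brightest 10%. The array carries 263 probes as 10 spots each, which gives the error within an array. For the 175 of these that were detected, the 10 spots had a median SD of 0.058, against 0.121 among rats for the same probes. These are unlike measures, since the first is of single spots and the second of means over a probe's 10 spots. Within slides, which leaves out the difference between the slides' means, the median SD over all detected genes was 0.105. Without rat 1 the median SD over the genes detected in the other 3 rats was 0.095. Both values rest on fewer differences among rats than the SD over 4 rats, and that alone lowers a median SD.

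**Figure D3:**
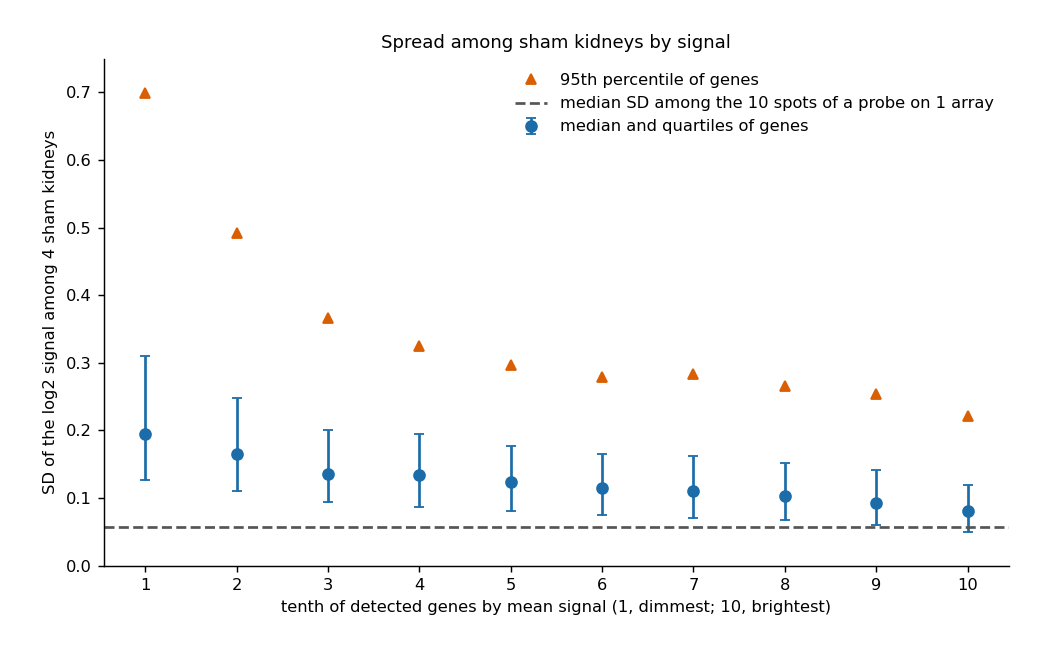
SD of the log2 signal among 4 sham kidneys in 10 equal bins of the detected genes ordered by mean signal. Points are medians with quartiles as bars, triangles the 95th percentile, and the dashed line the median SD among the 10 spots of a probe on 1 array (0.058). The median falls from 0.194 to 0.080 from the dimmest to the brightest bin.

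The steadiest genes above the median signal by the rule of the text were Tnfaip1, Tex264, Ube3a, Hnrnpl, Rps7 and Trub2, with an SD of 0.0033 to 0.0055. Tex264, a receptor for the autophagy of endoplasmic reticulum, was at the same time among the 100 brightest, at 7.52, 7.51, 7.52 and 7.52. With 4 rats an SD this small is the lower tail of many genes and does not rank them. Of common reference genes, all 14 were detected, with Gapdh at 7.45 ± 0.08, B2m at 7.31 ± 0.09, Actb at 7.22 ± 0.10, Tbp at -0.34 ± 0.08 and Gusb at -1.28 ± 0.09.

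An SD of 0.5 or more was found for 427 genes (2.36% of those detected), of which 191 were in the dimmest 10% and 9 in the brightest 10%. In 118 of the 427 a single rat stood apart from the other 3 (its gap to the nearest rat, divided by the whole range, passed the 95% critical value of Dixon's ratio). These split by direction. In 63 genes the lone rat was high, 1 of the 63 lay above the median signal, and 40 of them were high in rat 1. In 55 genes the lone rat was low, and 31 of them lay above the median signal.

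Of the 15 genes with the largest SD above the median signal, 13 were of this low kind, the others being Hbb and Tcf12. Herpud1, a protein of endoplasmic reticulum quality control, read 5.37, -0.32, 5.49 and 5.17, so that rat 2 alone was low. Its second probe read 3.32, 3.42, 3.45 and 3.16 and did not show it. Nphs1, nephrin of the slit diaphragm, read 1.68, 1.38, -3.33 and 1.52. Jup, Pdcd11 and Rab34 were likewise low in rat 3 alone, Cavin3, Slc8b1, Tmem30a and Utp18 in rat 2 alone, Mthfs, Rhot1, Ddx55 and Acsl4 in rat 1 alone, and Gas6 in rat 4 alone. These spots lay in several places on the array, often near others of the same rat. Of the 55 genes that were low in a single rat, 47 had another such gene of the same rat within 10 rows and 5 columns, on an array of 532 rows and 85 columns. This held for 8 of 11 genes in rat 1, 22 of 23 in rat 2, 13 of 13 in rat 3 and 4 of 8 in rat 4. Of the 63 genes that were high in a single rat, 23 had such a neighbour, all of them among the 40 of rat 1. The share that random placement would give was not computed. Other detected probes of the 55 low genes numbered 14, and 0 of them had an SD of 0.5 or more. The values of Nphs1 in rat 3 and of Herpud1 in rat 2 rest on 1 spot each. Tcf12, with 1.68, 2.36, -0.61 and 1.54, was also low in rat 3 on its brightest probe, while its other 2 probes had an SD of 0.13 and 0.16.

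**Figure D4:**
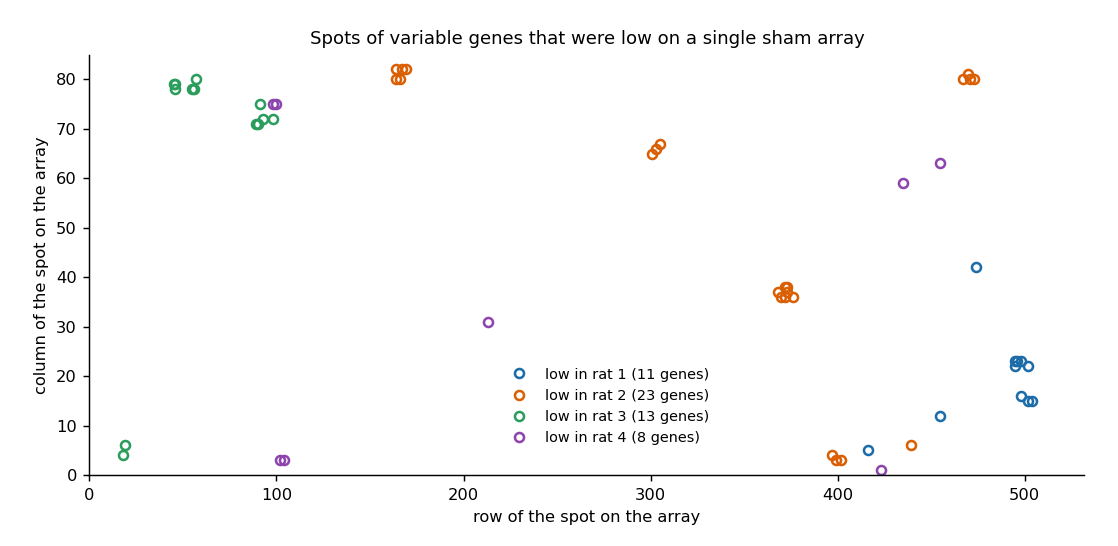
Position on the array (row and column of the spot) of the 55 genes with an SD of at least 0.5 whose signal was low in a single sham kidney, coloured by that rat. The spots of one rat lie in small groups, with those of rat 2 in several places and most of those of rat 1 at one end of the array.

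Setting aside the genes that a single array decided, the 40 largest spreads above the median signal, with an SD of 0.42 or more, showed differences carried by several genes together. This set was chosen after the values were seen. Of these 40 genes, 8 had further detected probes, and 7 of the 9 further probes ordered the 4 rats exactly as the brightest one did, the exceptions being those of Tcf12. The further probe of Sall3, counted among the 7, read -3.41 to -3.86, near the lower end of detected signal, where such an order carries little weight. In bulk tissue, fewer cells of a type and less RNA per cell cannot be told apart.

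Haemoglobin and heme genes of red blood cells varied most. Hba-a3, an alpha chain, read 7.48, 7.10, 6.05 and 8.63 in rats 1 to 4. Hbb-b1, a beta chain, read 6.30, 6.19, 5.15 and 7.20, and Hbb read 1.87, 1.67, 0.27 and 3.39. Alas2, the erythroid enzyme that starts heme synthesis, lay just below the median signal and read -0.19, -0.52, -1.77 and 1.61. Rat 4 was the highest and rat 3 the lowest for all 4 detected members of this list, and rats 1 and 2 lay between them. Hba-a3 was the only member among the 100 brightest genes. Its place there rests on rat 4, since its mean over the other 3 rats was 6.88, below the level of the 100th gene.

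Several of the 40 genes were lowest in rat 1 and highest in rat 2 or 3, and the examples here were picked after their values were seen. Slc22a24, of the organic anion carrier family, read 1.79, 3.39, 3.26 and 2.35. Slc22a2, the organic cation carrier of the basolateral membrane, read 2.47, 3.54, 3.51 and 2.95. Hnmt, which inactivates histamine, read 1.83, 3.08, 3.16 and 2.18. Gc, the vitamin D binding protein, read 0.43, 1.92, 2.19 and 1.31, a range of 3.38-fold. The same order of rats, with 2 and 3 above 4 and 4 above 1, held for Agt (0.67, 1.64, 1.69 and 1.22), which encodes angiotensinogen, and for Cryab (5.49, 6.63, 6.32 and 5.69), a small heat shock protein of the medulla. Odc1, the first enzyme of polyamine synthesis, read 3.51, 4.56, 4.33 and 3.53, and its second probe 2.65, 3.80, 3.45 and 2.67. Of the 40 genes, 21 were lowest in rat 1 and 26 were highest in rat 2 or 3. Over all genes above the median that no single array decided, rat 1 was the lowest in 40.9% and rat 2 or 3 the highest in 44.3%.

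Marker lists differed among the animals, in directions that varied with the list. The median deviation of the 5 S3 markers from the genes' means was -0.22, 0.19, 0.14 and -0.05 in rats 1 to 4, and 4 of the 5 were lowest in rat 1. Intercalated cell markers ran the other way, with 0.21, -0.16, -0.11 and 0.08. For example, Slc4a9 read 2.99, 2.19, 2.41 and 2.66 and Rhcg, an ammonia channel, 4.04, 3.55, 3.44 and 3.71. Principal cell markers had 0.20, -0.11, -0.04 and -0.01, and 8 of 9 were highest in rat 1. Podocyte markers had 0.13, -0.02, -0.08 and -0.03, and 8 of 10 were highest in rat 1. Over all detected genes the median deviation was within 0.01 of 0 in each rat, and 34.6% were highest and 33.8% lowest in rat 1. The proximal tubule list as a whole stayed within 0.04, with -0.04, -0.03, 0.04 and 0.02. These deviations kept their sign under quantile normalization, the median of detected probes and normexp in the lists and rats where they exceeded 0.1. How much of them goes with the lower detection and the high spike-in signal of rat 1 was not tested.

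Rat 4 stood below the others in genes known to be induced by glucocorticoids. Of 10 detected members of that list, 7 were lowest in rat 4, against 22.7% of all detected genes, and the median deviation was 0.04, 0.07, 0.06 and -0.25. Rat 4 was also the lowest for 6 of 10 detected immediate early genes, with a median deviation of -0.13, and for 4 of 7 medullary genes, with -0.15. Per1, a clock gene that the hormone also drives, read -0.38, -0.89, -0.82 and -1.71. Sgk1, a kinase that acts on the sodium channel, read 3.74, 3.53, 3.52 and 3.04, and Tsc22d3 read 4.13, 3.88, 3.88 and 3.57. Fkbp5, at 4.92, 4.97, 4.92 and 4.67, moved less, and Mt2A, Klf9 and Zbtb16 were lowest in another rat. Slc25a25 (4.94, 4.65, 4.46 and 3.60), a mitochondrial ATP-magnesium carrier, and Bcl6 (2.83, 3.63, 2.43 and 1.77), a transcriptional repressor, were also lowest in rat 4, each with a second probe in the same order of rats.

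**Figure D5:**
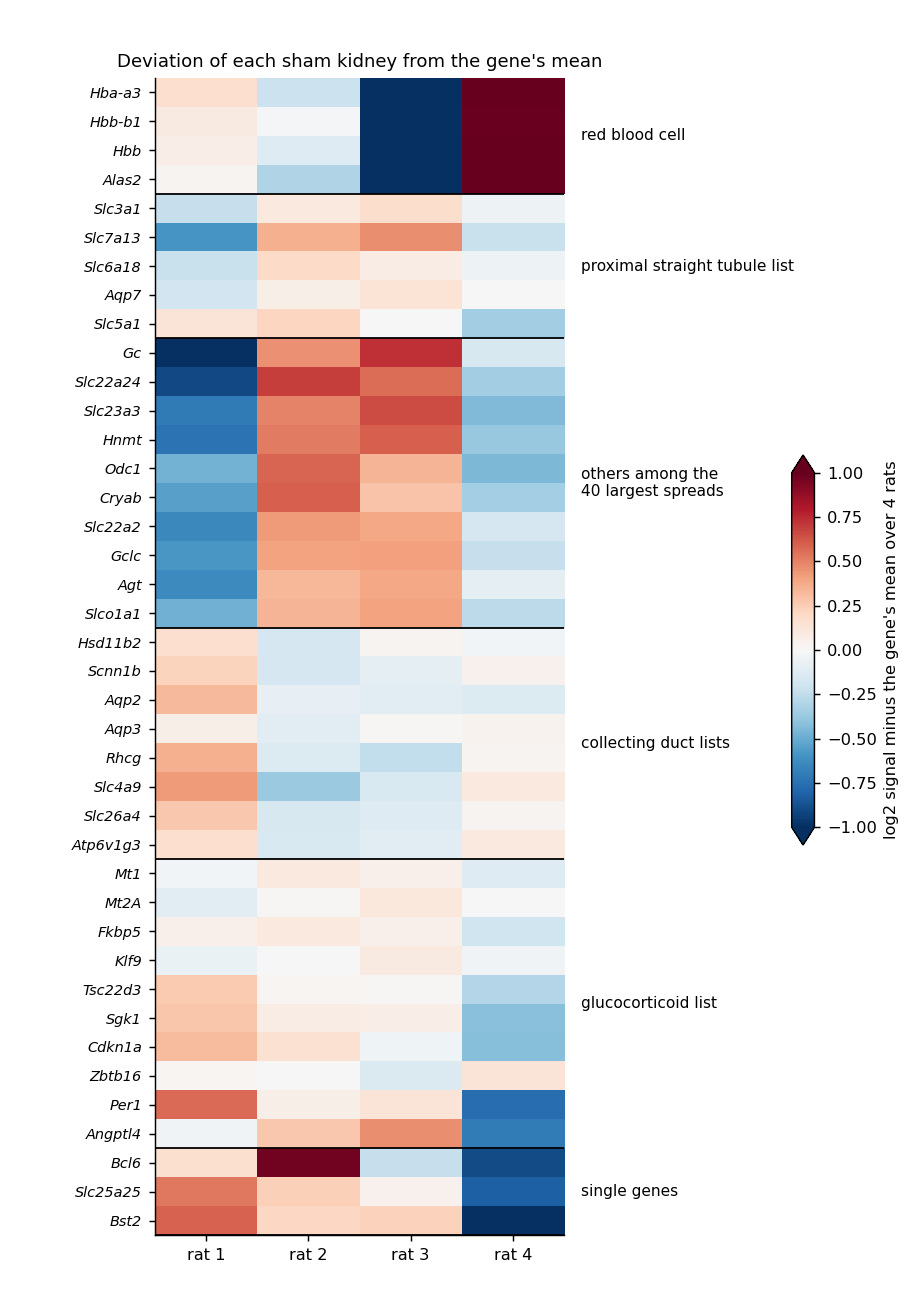
Deviation of each sham kidney (columns) from the gene's mean over 4 rats, on the log2 scale, with red above and blue below the mean and values beyond 1 in the darkest colours. Groups are named at the right. Red blood cell genes are lowest in rat 3 and highest in rat 4, the straight tubule and neighbouring genes are mostly lowest in rat 1, and collecting duct genes are mostly highest in rat 1.

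Interferon-induced genes gave 12 of 17 detected (70.6%), near the 65.1% of all genes with a symbol on the array. Ifit1, Ifit3, Mx1, Mx2 and Oasl were not detected. The median deviation of the 12 detected genes was 0.18, -0.23, -0.06 and 0.10, and 9 of 12 were highest in rat 1 and 9 of 12 lowest in rat 2, against 34.6% and 23.7% of all detected genes. Irf7, the regulator of the response, read 2.12, 1.26, 1.43 and 1.77, and Oas1a, a sensor of double-stranded RNA, 1.95, 1.18, 1.33 and 1.56. Bst2, which tethers viruses to the cell, went another way with 3.94, 3.56, 3.58 and 2.32, and its second probe followed it with 2.64, 2.37, 2.39 and 1.08.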

How the data were processed

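The 4 sham arrays were of a 1-colour 4x44K rat design (014879) with annotation build rn4 and, per the file headers, the authors read them out in Feature Extraction 10.5.1.1 (Agilent; protocol GE1_105_Dec08). The deposited files hold each spot's intensity on a linear scale, background-subtracted and detrended within the array, per the file headers, and not normalized between arrays. The labels' protocols name the RNeasy Mini Kit for extraction and Low Input Quick Amp for labelling. A second deposited file, the authors' log2 values of 30448 probes, has column medians of -0.0169 to 0.0025 in the sham columns. Its deviations matched those computed here (r = 0.995 across probes, slope 1.00 within 2 decimals), so its scale is log2 with probes centred, and it served only as an alternative; its 4 columns of nephrectomized kidneys were not used.

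Spots marked as outliers were removed, log2 intensities of a probe's spots were averaged, and each array's 75th percentile over gene probes was subtracted (Python 3.11.15, pandas 2.3.3). A probe was detected on an array where at least a share of 0.5 of its spots was well above background, and was kept where detected on all 4. Of 41012 probes, 18713 were given a symbol by RefSeq accession through a gene table of the GRCr8 assembly, and the brightest kept probe stood for a gene. List members without a match were not analysed here. Near-identical family members, such as ribosomal proteins, haemoglobins and metallothioneins, can share signal. There is 1 group, so no test between groups was made, and Dixon's ratio served to mark values of a single rat that stood apart. The precision is limited by 4 arrays.

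Genes were named by rule: the 40 brightest, the 3 brightest and the dimmest of each list and its undetected members where 5 or fewer, the 15 largest and 10 smallest SDs above the median signal, and the 5 highest and lowest of each rat. Some were left out for room, some results are not reported here, and other genes were chosen after their values were seen. The members and lists were chosen with earlier results of these data known. The steps were tested on simulated data. Alternatives were other detection rules, quantile normalization, the median of detected probes, normexp (limma 3.58.1, R 4.3.3, offset 50), the deposited table, the mean of a gene's probes, each probe alone, other numbers of brightest genes, the median over rats, slides as a block and each rat left out.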

Additional observations from a re-analysis of the deposited data

Results flagged for a closer look

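Each value here stood apart from the same value in the other 3 sham kidneys by Dixon's ratio for 4 values at the 95% level. Chance alone gives this in about 1 in 20 groups of 4. It held for 23 of the 176 gene levels examined, many of which had been named for their spread or for a single rat, against 6.40% of all detected genes. The array of rat 1 had a mean spike-in signal of 3.37, against 2.04 to 2.25 in the others, and a median absolute deviation of 0.112, against 0.0694 to 0.0717.

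Low signal in a single rat with a gap of over 1 on the log2 scale was seen for Herpud1 (-0.32 in rat 2), Cavin3 (-0.44 in rat 2), Slc8b1 (-0.40 in rat 2), Tmem30a (-1.88 in rat 2) and Utp18 (-1.58 in rat 2). In rat 3 it was seen for Nphs1 (-3.33), Pdcd11 (-2.81), Jup (-2.12) and Rab34 (-2.66). In rat 1 it was seen for Mthfs (-0.79), Rhot1 (-2.15), Ddx55 (-1.28) and Acsl4 (-0.093), and in rat 4 for Gas6 (-0.068) and the olfactory receptor Or5b123b (0.59). The other rats read 5.17 to 5.49 for Herpud1, 1.38 to 1.68 for Nphs1, 2.64 to 2.67 for Mthfs and 3.42 to 3.78 for Gas6.

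Smaller departures were those of rat 1 for Cox6a1 (8.87), Aqp2 (4.70), Ptprc (-2.32), Clu (3.14) and Nr1d2 (3.97), of rat 2 for Tpt1 (8.12) and Tfcp2l1 (5.15), and of rat 4 for Fkbp5 (4.67). The median deviation of the glucocorticoid-induced list was -0.25 in rat 4, against 0.04 to 0.07 in the others, and that of the thick ascending limb list was 0.12 in rat 2, against -0.06 to -0.03.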

How the results depend on the processing

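Members of fixed families and lists were counted again among the 100 brightest. The main counts were 25 ribosomal, 14 respiratory chain, 4 proximal tubule and 2 thick ascending limb genes. The lysosome and endocytosis list gave 3, and the glutathione and peroxide handling list 4. These counts stayed within 1.5 times under quantile normalization, normexp, the mean of a gene's probes and the median over rats. With these 4 settings, 84 to 100 of the 100 genes were shared. The counts also stayed within 1.5 times with each probe alone and with each rat left out. The counts by role, such as 8 genes of peroxide handling and glutathione and 4 lysosomal proteases, are of other sets and were not repeated. Detected genes numbered 20319 with 3 of 4 arrays required, 23485 with 1 of 4, and 9381 where only genes with a symbol counted; leaving out 1 rat gave 18176 to 20163, the highest without rat 1. The median SD was 0.237 with no filter on dim probes and 0.0993 for genes above the median signal, a setting added after seeing the data, and 0.0949 to 0.124 with 1 rat left out, the lowest without rat 1. Genes with an SD of 0.5 or more numbered 155 under normexp, whose offset compresses dim probes, 9801 of 35178 with no filter on dim probes, 64 of 9065 above the median signal, 309 without genes decided by a single array, and 464 to 488 with 1 rat left out. Of 176 gene levels, 3 moved by over 1 SD under quantile normalization, 80 under normexp and 38 with the mean of a gene's probes. With a rat left out the count was 0, which was fixed in advance and shows nothing about stability. Leaving out 1 of 4 values cannot move their mean by 1 SD of the same values. No paired analysis was possible because only 1 group was analysed. The number of arrays limits the precision, and each probe but 263 had a single spot on an array.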

Other observations

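Over all genes with a symbol on the array, 65.1% were detected. Of 323 solute carriers on the array, 232 were detected, and Slc13a3, Slc34a1 and the creatine carrier Slc6a8 (7.21 ± 0.04) were the brightest. Cytochromes P450 had 26 of 65 detected, led by the fatty acid hydroxylases Cyp4a8 (7.10 ± 0.16), Cyp4a3 (6.81 ± 0.14) and Cyp4f1 (6.52 ± 0.09). Glutathione S-transferases had 18 of 23, with Gsta1, Mgst3 and Gsta2 at 7.63 ± 0.09, 7.54 ± 0.11 and 7.41 ± 0.12, among the 100 brightest. Among metallothioneins, Mt1 and Mt2A lay in the 100 brightest and Mt3, the brain form, was at -2.72 ± 0.15. Proteasome subunits (38 of 39 detected) had a median percentile of 87.6.

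Of 1132 olfactory and vomeronasal receptor genes, 59 were detected (5.21%), mostly near the lower end of the signal (median percentile 13.4). Or2ak6 was the brightest of them and read 2.25, 2.20, 2.26 and 1.95 in rats 1 to 4. Sall3, a developmental zinc finger gene, read 6.19, 5.70, 5.60 and 5.12 on its brightest probe and -3.41, -3.56, -3.79 and -3.86 on its second probe, which differ by over 8 on the log2 scale while keeping the same order of rats.

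Cell division genes were mostly detected at low signal (11 of 12, median percentile 39.8), led by Cdk1 (1.76, 2.02, 1.36 and 1.89), and 8 of 11 were lowest in rat 3, against 19.8% of all detected genes. Of the markers of tubular injury, Havcr1, Lcn2 and Krt20 were not detected, whereas Clu (2.99 ± 0.10) and Spp1 (2.54 ± 0.14) were the brightest of the 10 detected. The immediate early gene Fos was not detected on all 4 arrays, and Ier2 (2.94 ± 0.09) and Jun (2.61 ± 0.13) led the 10 of 11 that were.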
